A study of Mus musculus with 9 samples.

Results

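The 8 genes described here act in the repair of programmed DNA breaks during meiosis: the strand exchange genes Dmc1, Psmc3ip, Meiob and Spata22, and the crossover genes Hfm1, Msh4, Msh5 and Mlh3. They were chosen by gene symbol, as the rows of the deposited array values whose annotated symbol was exactly one of these names, and all 8 were found among the 19935 genes with a value. Whole testes of untreated male Swiss albino mice, from an inbred line, were taken at 8, 16 and 24 days of age, during the first wave of spermatogenesis. Total RNA was hybridised to 9 Affymetrix arrays, 3 biological replicates per age per the series' design, with no other treatment, allele or genotype in any group. Each of the 3 pairs of ages was compared, as the series' design sets out. The replicate numbers are the 1 and 2 of the sample titles, and 3 stands for the array without a number in its title. The labels do not say whether an array held 1 animal or a pool.

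All 8 genes rose from 8 to 16 days, by 1.87-fold for Mlh3 to 10.5-fold for Meiob, while 10.4% of all genes rose in that comparison. From 16 to 24 days Dmc1 fell 1.62-fold and Msh5 fell 1.38-fold, Psmc3ip rose 1.43-fold, and the other 5 did not pass the test. Over all genes 20.1% fell and 13.2% rose, so 2 falls and 1 rise among 8 genes were near these shares. None of these 3 changes passed when tested against a 1.5-fold change, or with a replicate block on the 6 numbered arrays. Of the 8 genes, 7 were still above their 8-day values at 24 days, and Dmc1 was not separated from its own, against 19.2% of all genes that rose from 8 to 24 days.

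In meiosis, DNA breaks made on purpose are resected to single strands, and a recombinase filament on those strands searches the homologous chromosome and invades it. DMC1 is the meiosis-specific recombinase of this step. PSMC3IP, also called HOP2, helps it to invade, and MEIOB and SPATA22 form a complex that binds the single strands together with replication protein A. HFM1 is a helicase, and MSH4 and MSH5 form a clamp, that stabilise joint molecules on the way to crossovers, and MLH3 is a subunit of the nuclease that resolves many of those molecules as crossovers. In a growing mouse testis, the first germ cells enter meiosis around or after the youngest age sampled here, pachytene spermatocytes accumulate next, and round spermatids are the last of these cells to appear.

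The promoters of 4 genes are printed because these genes stand at the ends of the order of change from 16 to 24 days. They are Dmc1 and Msh5, whose values fell, and Psmc3ip and Mlh3, whose changes were the highest of the 8. The change of Mlh3 did not pass the test. Each sequence holds the 250 bases before the start of the gene in RefSeq on the GRCm38.p6 build, written 5′ to 3′ on the gene's strand, which is the minus strand for all 4; for Mlh3 it is 1 of 2 overlapping entries. Capitals mark matches, on either strand, to 6 short motifs.
Dmc1 (chr15:79605110-79605359): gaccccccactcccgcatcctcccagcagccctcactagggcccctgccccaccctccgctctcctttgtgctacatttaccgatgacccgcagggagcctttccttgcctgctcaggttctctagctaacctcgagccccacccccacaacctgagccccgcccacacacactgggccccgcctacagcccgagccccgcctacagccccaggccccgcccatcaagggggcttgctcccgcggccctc
Msh5 (chr17:35046623-35046872): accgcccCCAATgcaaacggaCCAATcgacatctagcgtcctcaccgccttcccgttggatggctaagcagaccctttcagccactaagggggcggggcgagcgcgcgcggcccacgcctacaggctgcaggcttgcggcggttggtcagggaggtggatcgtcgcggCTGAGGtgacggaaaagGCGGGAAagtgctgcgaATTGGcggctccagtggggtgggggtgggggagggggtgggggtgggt
Psmc3ip (chr11:101095436-101095685): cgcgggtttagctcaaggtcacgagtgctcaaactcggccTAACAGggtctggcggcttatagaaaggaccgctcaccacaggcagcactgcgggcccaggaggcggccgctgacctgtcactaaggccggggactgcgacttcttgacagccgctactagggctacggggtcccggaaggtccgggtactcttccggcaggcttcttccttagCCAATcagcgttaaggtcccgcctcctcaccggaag
Mlh3 (chr12:85270600-85270849): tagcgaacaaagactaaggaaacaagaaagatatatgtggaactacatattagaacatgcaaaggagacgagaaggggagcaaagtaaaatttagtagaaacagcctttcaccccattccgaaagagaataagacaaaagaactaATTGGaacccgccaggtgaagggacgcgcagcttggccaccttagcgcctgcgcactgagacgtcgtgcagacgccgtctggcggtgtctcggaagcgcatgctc

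The motifs were CCTCAG, the core bound by STRA8, which 22.3% of all 32851 promoters of this length held on at least 1 strand, TAACNG (MYB, 19.8%), TTCCCGC (E2F, 3.8%), CACGTG (E-box, 6.0%), TGACGTC (CREB and CREM, 2.8%) and CCAAT (NF-Y, 33.8%). The Msh5 window held 5 matches: 3 CCAAT, 1 CCTCAG and 1 TTCCCGC. Psmc3ip had 1 TAACNG match at bases -210 to -205 and 1 CCAAT match at -36 to -32, counted back from the start of the gene. Mlh3 had a single CCAAT match at -105 to -101, and the Dmc1 window had no match to these letters, at a GC content of 68.8%. Among the other members with a RefSeq promoter in the table, CCTCAG was found in Hfm1, TAACNG in Msh4 and CCAAT in Spata22. Neither CACGTG nor TGACGTC was in any of the members' windows. A match is a run of letters and was not tested as a binding site. A promoter was in the table for 7 of the 8 genes, and the entry for Meiob was missing.

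The deposited values are on a log2 scale on which every row has its median at 0, so a value of 0 is the gene's own median and not an absence of expression. The values therefore give changes between ages and no order of abundance between genes. They ranged from -6.07 to 6.05 over 28815 rows, of which 21780 named 1 gene. Every row had at least 1 blank cell, which was taken as 0. Blank cells lie behind the 0.00 of Meiob and Msh5 at 24 days replicate 1. The same holds for Spata22, Msh4 and Hfm1 at 24 days replicate 3, and for Psmc3ip and Mlh3 at 16 days replicate 3. The arrays of 8 days replicate 1 and 16 days replicate 2 stood apart in 1027 olfactory receptor genes, with medians of 0.17 against -0.05 to 0.03 on the other 7 arrays, and no member's call changed when both were left out. All changes below are limma moderated tests with Benjamini-Hochberg adjustment over all 19935 genes, called at an adjusted p under 0.05, and each error after ± is a standard error unless SD is written. In whole tissue, fewer cells of a type and less RNA per cell cannot be told apart. The signal intensity behind these array values is not known, and their number of 3 per age limits the precision.

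Among the strand exchange genes, Meiob had the largest rise. Its values at 8 days were -3.36, -3.17 and -2.56, at 16 days 0.28, 0.37 and 0.44, and at 24 days 0.00, 0.42 and -0.07, for replicates 1, 2 and 3 in turn. The 3 arrays of 8 days were far below the other 6 arrays, and the ages 16 and 24 days overlapped. The rise to 16 days was 3.39 ± 0.20 on the log2 scale (10.5-fold, limma adjusted p = 2.07e-06), 76th from the top of all genes.

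Spata22, whose product is the partner of MEIOB, followed the same course with a smaller rise. Its values were -2.72, -2.16 and -2.33 at 8 days, 0.12, 0.45 and 0.35 at 16 days, and 0.00, 0.45 and 0.00 at 24 days. Again the 8-day arrays were apart and the later ages overlapped. The rise to 16 days was 2.71 ± 0.17 (6.54-fold, limma adjusted p = 3.32e-06). Within each array, Meiob minus Spata22 had a mean of -0.62 at 8 days and 0.06 at 16 days, a shift of 0.68. The closest arrays of these ages were at -0.23 and -0.09, without overlap. Whether the rises of the 2 genes differ was not tested.

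Psmc3ip, the accessory factor of strand invasion, rose in both intervals. Its values were -2.03, -1.45 and -1.61 at 8 days, -0.03, 0.29 and 0.00 at 16 days, and 0.59, 0.68 and 0.53 at 24 days. Each age lay wholly above the one before. The first rise was 1.78 ± 0.15 (3.44-fold, limma adjusted p = 2.18e-05) and the second 0.52 ± 0.15 (1.43-fold, adjusted p = 0.0240). The second call was not kept without any 1 of 4 arrays (16 days replicate 1 or 3, 24 days replicate 1 or 2), where the change was 0.46 to 0.52 with adjusted p of 0.0686 to 0.0926, nor with blank cells left missing (0.48, adjusted p = 0.0717).

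Dmc1, the recombinase itself, rose and then fell. Its values were -0.57, -0.79 and -0.03 at 8 days, 0.53, 0.59 and 0.73 at 16 days, and -0.24, 0.00 and 0.00 at 24 days. The 16-day arrays were the 3 highest, and the arrays of 8 and 24 days overlapped. The rise was 1.08 ± 0.17 (2.11-fold, limma adjusted p = 0.00154) and the fall -0.70 ± 0.17 (1.62-fold, adjusted p = 0.0130). The 2 values of 0.00 at 24 days are blank cells of the deposited table, taken as the row's median. Without 24 days replicate 1 the fall was -0.62 with an adjusted p of 0.0563.

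**Figure D1:**
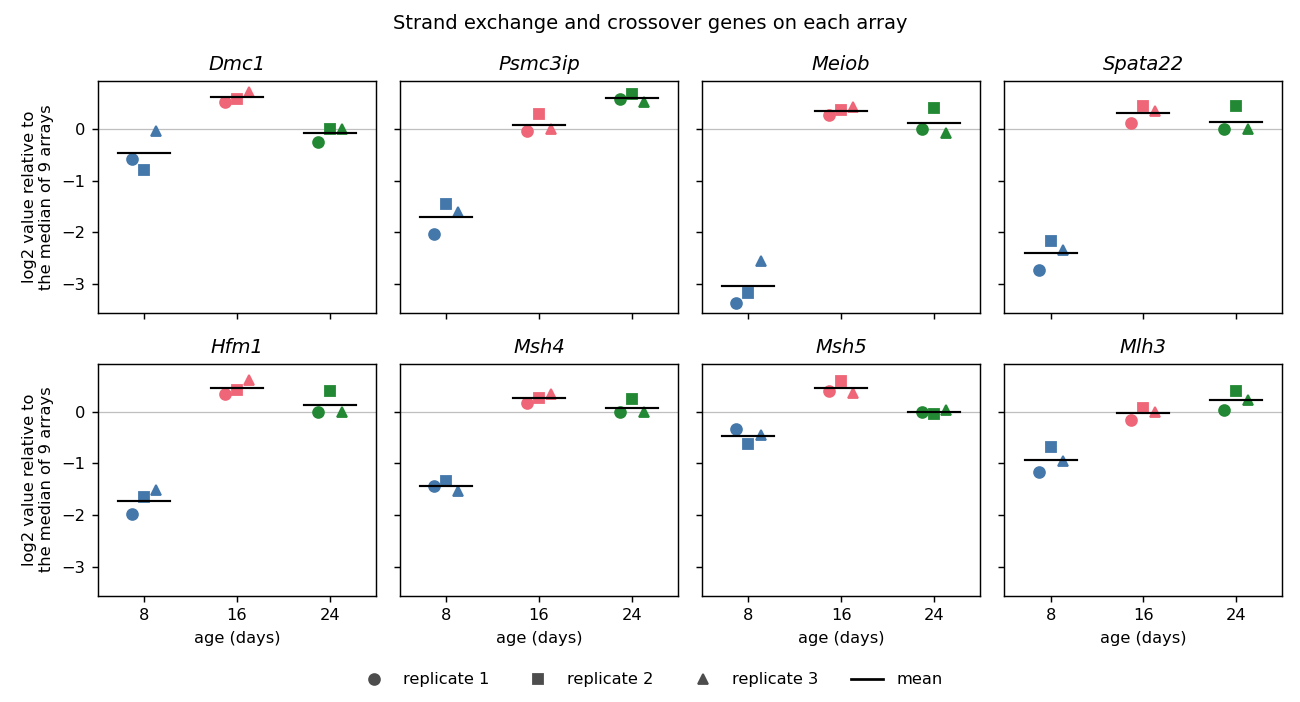
Log2 value of each of the 8 genes relative to its own median over the 9 arrays (vertical axis) at 8, 16 and 24 days (horizontal axis). Marker shapes are replicates 1 to 3 and black bars are the means. The means of all 8 genes are lowest at 8 days, and the 16-day and 24-day arrays overlap for 5 genes.

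Of the crossover genes, Hfm1 rose most. Averaged over its 2 rows, it was at -1.98, -1.66 and -1.52 at 8 days, 0.34, 0.42 and 0.62 at 16 days, and -0.01, 0.41 and 0.00 at 24 days. The 8-day arrays were apart from the rest, and the later ages overlapped. The rise was 2.18 ± 0.15 (4.53-fold, limma adjusted p = 6.25e-06), and its rows gave 2.38 and 1.98 when fitted apart. The change from 16 to 24 days of -0.32 ± 0.15 did not pass (adjusted p = 0.122), but passed without 24 days replicate 2 (-0.46, adjusted p = 0.0447) and with array weights (-0.41, adjusted p = 0.0493).

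Msh4 and Msh5, whose products make up the clamp, did not move to the same extent. Msh4 was at -1.44, -1.35 and -1.53 at 8 days, 0.17, 0.26 and 0.35 at 16 days, and 0.00, 0.25 and 0.00 at 24 days. Msh5 was at -0.33, -0.63 and -0.46 at 8 days, 0.41, 0.59 and 0.37 at 16 days, and 0.00, -0.05 and 0.04 at 24 days. Both were lowest at 8 days in every array, but the 16-day and 24-day arrays overlapped for Msh4 and were separate for Msh5, the later ones lower.

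The rise of Msh4 was 1.70 ± 0.10 (3.25-fold, limma adjusted p = 2.11e-06) and that of Msh5 0.93 ± 0.10 (1.91-fold, adjusted p = 1.29e-04). Within each array, Msh4 minus Msh5 was -1.10, -0.72 and -1.07 at 8 days and -0.24, -0.33 and -0.02 at 16 days, without overlap. After 16 days Msh5 fell by 0.46 on the log2 scale (-0.46 ± 0.10, adjusted p = 0.00751). The change of Msh4 was -0.18 ± 0.10 (adjusted p = 0.182), and the difference between the genes at 24 days overlapped that at 16 days.

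Mlh3, the nuclease subunit, had the smallest rise to 16 days and, after Psmc3ip, the highest change from 16 to 24 days. Its values were -1.17, -0.68 and -0.96 at 8 days, -0.16, 0.07 and 0.00 at 16 days, and 0.04, 0.40 and 0.23 at 24 days. The 8-day arrays were the 3 lowest, and the later ages overlapped at a single pair of arrays. The rise was 0.91 ± 0.14 (1.87-fold, limma adjusted p = 0.00132), and the further change to 24 days, 0.26 ± 0.14, did not pass (adjusted p = 0.175).

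Set side by side, the rises to 16 days ran Meiob, Spata22, Hfm1, Psmc3ip, Msh4, Dmc1, Msh5 and Mlh3. The difference of neighbours in that order, taken within each array, did not overlap between 8 and 16 days. The exceptions were Psmc3ip and Msh4, Dmc1 and Msh5, and Msh5 and Mlh3. The order came from the same arrays and fixed the direction of these differences, so they are a description and not a test. For all 8 genes every 16-day array was above every 8-day array, which held for 14.7% of all genes, and all 8 were called by limma's F test over the 3 ages, as were 50.7% of all genes. The order from 16 to 24 days was Psmc3ip, Mlh3, Spata22, Msh4, Meiob, Hfm1, Msh5 and Dmc1. Described in the same way, only the steps from Psmc3ip to Mlh3 and from Mlh3 to Spata22 were without overlap. Every 24-day array was above every 16-day array for Psmc3ip (16.5% of all genes) and below it for Dmc1 and Msh5 (39.1% of all genes). The changes of Meiob (-0.25 ± 0.20, limma adjusted p = 0.331) and Spata22 (-0.16 ± 0.17, adjusted p = 0.467) over these days did not pass the test.

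The 2 genes at the ends of the second order are both needed for the same strand invasion, as recombinase and as accessory factor. Psmc3ip minus Dmc1 within an array was -0.56, -0.30 and -0.73 at 16 days and 0.83, 0.68 and 0.53 at 24 days, a shift of 1.22. These ages could not overlap in the difference, because Psmc3ip was higher and Dmc1 lower on every 24-day array. At 8 days the difference was -1.46, -0.66 and -1.59, overlapping that at 16 days.

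The array scale bears on the second interval. The median change of all genes from 16 to 24 days was -0.16, and with each array centred on its median over all genes the share of calls that rose went from 39.7% to 59.8%. No member changed sign under that centring, and the same 3 were called, where 14.4% of all genes rose and 9.67% fell: Dmc1 was at -0.61 (limma adjusted p = 0.0353), Msh5 at -0.37 (adjusted p = 0.0143) and Psmc3ip at 0.61 (adjusted p = 0.0273). Relative to the median of all genes, Dmc1 changed by -0.53, Msh5 by -0.30, Hfm1 by -0.16, Spata22 by 0.01, Mlh3 by 0.42 and Psmc3ip by 0.68.

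From 8 to 24 days, Meiob was higher by 3.14 ± 0.20 (8.83-fold, limma adjusted p = 8.56e-07). Spata22 was higher by 5.86-fold, Psmc3ip by 4.93-fold, Hfm1 by 3.63-fold and Msh4 by 2.87-fold, with adjusted p from 1.01e-06 to 5.01e-06. Mlh3 was higher by 2.24-fold (adjusted p = 6.60e-05) and Msh5 by 1.38-fold (adjusted p = 0.00261). The call of Msh5 was lost in 2 alternatives and kept in 19. For these 7 genes every 24-day array was above every 8-day array, which held for 20.5% of all genes. Of all calls in this comparison, 35.3% rose, and 45.6% with arrays centred. The change of Dmc1, 0.38 ± 0.17, missed the threshold (adjusted p = 0.0859) and its arrays overlapped. It passed without 8 days replicate 3, the highest 8-day array for this gene (0.60, adjusted p = 0.00324), and with arrays centred (0.50, adjusted p = 0.0413), where 22.0% of all genes rose. On the 6 numbered arrays without a block it passed too, as did all 8 members, where 3180 of the 19935 genes rose. Over all arrays left out in turn it ranged from 0.22 to 0.60.

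The intervals were compared directly by the change from 16 to 24 days minus the change from 8 to 16 days. Of the members, 7 were called lower in the second interval, against 2.31% of all genes. Meiob had the largest difference (-3.64 ± 0.34, limma adjusted p = 2.05e-04, 20th from the lowest of all genes), followed by Spata22 (-2.87 ± 0.30, adjusted p = 3.49e-04) and Hfm1 (-2.50 ± 0.26, adjusted p = 3.85e-04). Mlh3 alone was not called (-0.65 ± 0.24, adjusted p = 0.210). The call for Psmc3ip (-1.26 ± 0.26, adjusted p = 0.0180) was lost without 16 days replicate 2 (-1.06, adjusted p = 0.0665), and that for Dmc1 (-1.77 ± 0.30, adjusted p = 0.00626) with array weights (-1.50, adjusted p = 0.0633). Both intervals share the 16-day arrays, so an error there moves them in opposite directions.

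**Figure D2:**
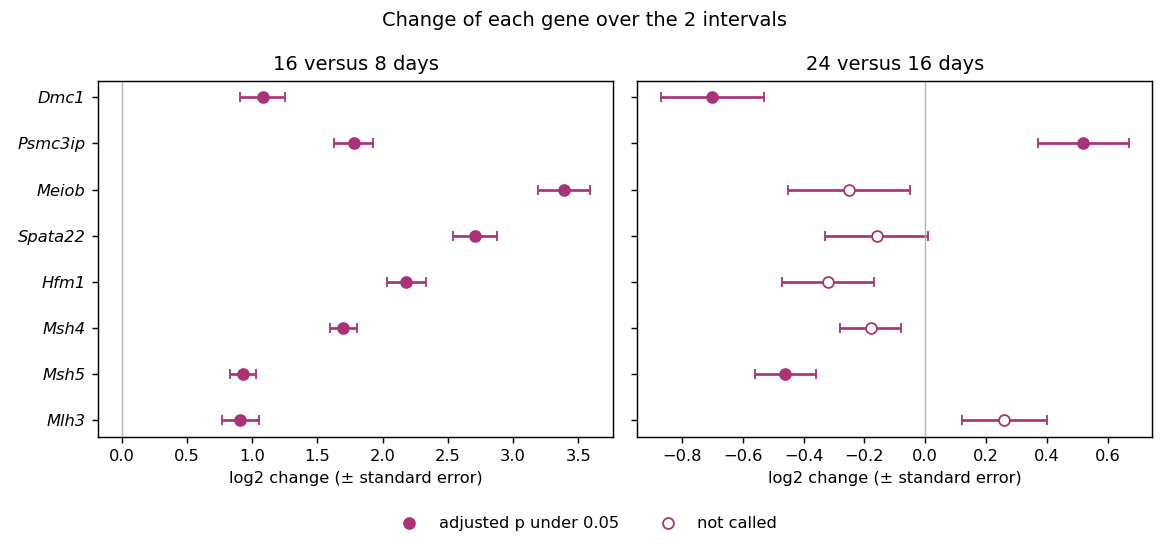
Log2 change of each of the 8 genes from 8 to 16 days and from 16 to 24 days (horizontal axis), with limma standard errors as bars; filled points have an adjusted p under 0.05. All 8 changes lie above 0 in the first interval, from 0.91 to 3.39, and spread from -0.70 for Dmc1 to 0.52 for Psmc3ip in the second.

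Some arrays took the same place for many members. Of the 16-day arrays, replicate 1 was the lowest for 7 of the 8 genes, and of the 24-day arrays replicate 2 was the highest for 7 of 8. The mean over the 8 genes nevertheless stayed between -1.70 and -1.38 at 8 days, 0.21 and 0.38 at 16 days, and 0.05 and 0.32 at 24 days. The first 2 ages are far apart on that mean, and the last 2 overlap.

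For each member, the 3 non-member genes nearest in value over the 9 arrays were found by the root mean square difference after each gene's mean was set to 0, among 9567 candidates. For Meiob the nearest was Spo11, the enzyme that makes the meiotic breaks (0.298), then Catspere2 (0.311) and Tesmin (0.327). For Hfm1 it was Hormad1, a protein of the meiotic chromosome axis (0.164), then Nxf3 (0.196) and Tex101 (0.205). The nearest to Msh4 were Tex101 (0.0785), Mcmdc2 (0.101) and Atr (0.126), a kinase of the DNA damage response. Dmc1 was nearest to Ythdc2, an RNA helicase needed for meiotic entry (0.186), Prss50 (0.188) and Mov10l1, a helicase of the piRNA pathway (0.208). Spata22 was nearest to Kbtbd6 (0.127), Psmc3ip to Adad1 (0.0909), Msh5 to Slc47a2 (0.117) and Mlh3 to Fyttd1 (0.0714). Between members, Dmc1 and Msh5 were the closest pair (0.228) and Meiob and Msh5 the most distant (1.24).

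Around these 8 genes, 6 lists of other recombination genes were described by their counts. From 8 to 16 days, 10.4% of all genes rose and 2843 of the 19935 fell. Of 29 other genes of strand exchange, 25 had a value, and 9 rose and 0 fell from 8 to 16 days by limma (1 fell at an unadjusted p under 0.05), with a median change of 0.03 against -0.02 over all genes. Mcmdc2, an MCM-like protein of meiotic repair, rose by 1.76 ± 0.08 (adjusted p = 3.91e-07). Hsf2bp, which brings BRCA2 to meiotic breaks, rose by 1.52 ± 0.11 (adjusted p = 7.65e-06). Fignl1, which removes recombinase from DNA, rose by 1.39 ± 0.13 (adjusted p = 5.63e-05). Without the 2 arrays that stood apart, 7 rose and 2 fell.

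In the second interval 3 of the 25 rose and 5 fell, with a median of -0.13 against -0.16 over all genes; over all genes 13.2% rose and 20.1% fell, so these counts were near the background. Only 1 fell with arrays centred, and 9 fell without the 2 arrays that stood apart. Rpa1, the large subunit of replication protein A with which MEIOB and SPATA22 act, rose by 0.66 ± 0.11 (limma adjusted p = 0.00217), after a change of 0.04 ± 0.11 from 8 to 16 days (adjusted p = 0.906). Hsf2bp rose further (0.48 ± 0.11, adjusted p = 0.00884), and so did 4930432K21Rik, now Brme1, a partner of HSF2BP (0.35 ± 0.11, adjusted p = 0.0367). BC055324, now Firrm, a partner of FIGNL1, fell (-0.63 ± 0.12, adjusted p = 0.00352), as did Mcm8 (-0.56 ± 0.14, adjusted p = 0.0136) and Rpa2 (-0.50 ± 0.14, adjusted p = 0.0238). The calls of Mcm8 and Rpa2 were lost with arrays centred and without 16 days replicate 1, 16 days replicate 3 or 24 days replicate 1, with adjusted p up to 0.0586 for Mcm8 and 0.0935 for Rpa2, and that of Rpa2 also without 24 days replicate 2 (adjusted p = 0.0515). The call of 4930432K21Rik was lost with blank cells left missing (adjusted p = 0.225) and without 8 days replicate 3, 16 days replicate 1 or 3, or any 1 of the 24-day arrays, at changes of 0.30 to 0.38.

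Of 12 other crossover genes, 8 had a value. Of these, 4 rose and 0 fell from 8 to 16 days by limma (1 fell at an unadjusted p under 0.05), with a median of 0.55, and 2 fell without the 2 arrays that stood apart. Over all genes 10.4% rose in that interval. Cntd1, a cyclin-like factor needed for crossover maturation, was at -3.46, -3.64 and -3.57 at 8 days, 0.00, 0.55 and -0.03 at 16 days, and 0.05, 0.40 and 0.32 at 24 days. Its 8-day arrays were apart from all others, and its rise of 3.73 ± 0.16 (13.2-fold, adjusted p = 3.11e-07) was above that of each of the 8 members, 42nd of all genes. Shoc1, the mammalian Zip2, rose by 0.88 ± 0.15 (adjusted p = 0.00193) and Ccnb1ip1, the E3 ligase HEI10, by 0.81 ± 0.17 (adjusted p = 0.00757). In the second interval Prr19, a partner of CNTD1, rose by 0.83 ± 0.14 (adjusted p = 0.00230) and Exo1, an exonuclease, fell by 0.40 on the log2 scale (-0.40 ± 0.13, adjusted p = 0.0429), a call lost with arrays centred (adjusted p = 0.166) and without any 1 of 5 arrays, which were every 16-day and 24-day array except 16 days replicate 2 (adjusted p of 0.0588 to 0.144).

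Of the 11 genes that dissolve or cut joint molecules by other routes, 2 rose in each interval and 0 fell by limma, also with arrays centred (at an unadjusted p under 0.05, 4 rose and 0 fell, then 3 rose and 1 fell). Over all genes 10.4% rose in the first interval, and 13.2% rose and 20.1% fell in the second. The counts of rises were near these shares. Slx4, a scaffold for nucleases, rose by 0.66 ± 0.14 (adjusted p = 0.00648) and again by 0.82 ± 0.14 (adjusted p = 0.00226). Rmi1, of the BLM complex, rose in the first interval (0.45 ± 0.09, adjusted p = 0.00483) and Mus81, a nuclease subunit, in the second (0.41 ± 0.10, adjusted p = 0.00960).

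The mismatch repair relatives of Msh4, Msh5 and Mlh3 act in all dividing cells. None of the 4 with a value was called by limma from 8 to 16 days (0 rose and 1 fell at an unadjusted p under 0.05), with a median of -0.07. Msh3 changed by 0.08 ± 0.10 (adjusted p = 0.706), Msh6 by -0.13 ± 0.16 (adjusted p = 0.714), Pms1 by -0.43 ± 0.15 (adjusted p = 0.0594) and Pms2 by 0.00 ± 0.14 (adjusted p = 0.996). Pms1 passed without 8 days replicate 1 (-0.59, adjusted p = 0.00741). It also passed with array weights (-0.47, adjusted p = 0.00879) and without the 2 arrays that stood apart (-0.52, adjusted p = 0.0158).

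From 16 to 24 days Pms1 fell (-0.61 ± 0.15, limma adjusted p = 0.0119) and Pms2 fell (-0.60 ± 0.14, adjusted p = 0.00912), while Mlh3 was at 0.26 ± 0.14. Without 24 days replicate 1 the change of Pms1 was -0.54 (adjusted p = 0.0525). Msh3 was at 0.09 ± 0.10 (adjusted p = 0.447) and Msh6 at -0.31 ± 0.16 (adjusted p = 0.154). Msh6 passed without the 2 arrays that stood apart (-0.42, adjusted p = 0.0261), so that 3 of the 4 fell there, and with array weights (-0.39, adjusted p = 0.0341).

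Of 8 genes of the synaptonemal complex and axis, the structure that joins homologues, 7 rose and 0 fell from 8 to 16 days by limma (also at an unadjusted p under 0.05), with a median of 1.39, against 1.74 for the 8 members. Over all genes 10.4% rose in that interval. Sycp2 rose by 2.22, Hormad1 by 2.08 and Sycp1 by 1.46. In the second interval only Syce1, of the central element, was called (0.73), and the list's median was 0.01. Of 7 genes of break formation, 3 rose and 1 fell in the first interval, with a median of 0.30. Spo11 rose by 2.90, Gm960, now Top6bl, its partner, by 0.57, and Prdm9, which marks the sites of breaks, by 0.55, while Mei4 fell (-0.47). The call of Prdm9 was lost with array weights (0.29, adjusted p = 0.262), with arrays centred (adjusted p = 0.0559), without the 2 arrays that stood apart (adjusted p = 0.0844), with blank cells left missing (adjusted p = 0.0606) and in every fit with 1 array left out except 8 days replicate 3 and 16 days replicate 2, with adjusted p up to 0.135. The call of Mei4 was lost without 8 days replicate 2 or 3 or 16 days replicate 1 or 2, with adjusted p up to 0.0848. Leaving blank cells missing also lost it (adjusted p = 0.0810), as did leaving out the 2 arrays that stood apart (adjusted p = 0.0915). The same held with the 2 ages compared alone (adjusted p = 0.0584). In the second interval 0 of the 7 rose and 4 fell by limma (the same counts at an unadjusted p under 0.05), against 13.2% and 20.1% of all genes. The 3 largest falls were those of Mei1 (-0.65), Mei4 (-0.58) and Prdm9 (-0.51). With arrays centred 2 fell, and Prdm9 was not called (-0.43, adjusted p = 0.136), nor was it without 8 days replicate 2 (adjusted p = 0.0550) or without any 1 of the 16-day and 24-day arrays except 16 days replicate 2 (adjusted p up to 0.144).

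**Figure D3:**
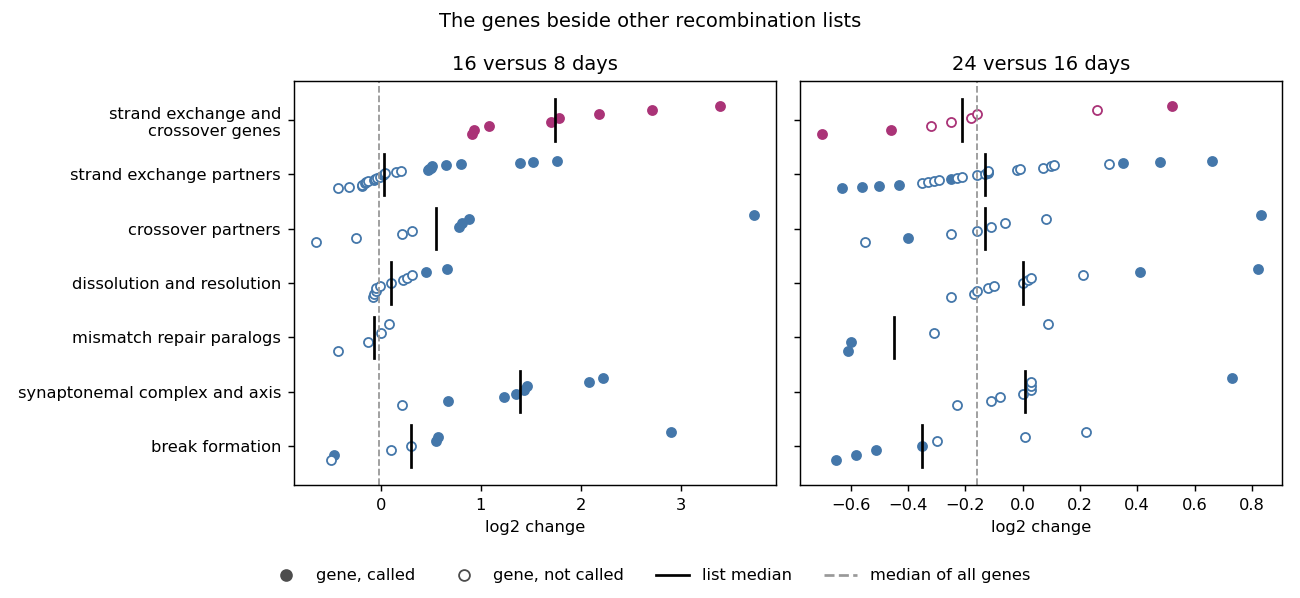
Log2 change of each gene (points) of the 8 members and the 6 lists of recombination genes, from 8 to 16 days and from 16 to 24 days (horizontal axis); filled points are called, black bars are list medians and the dashed line is the median of all genes. In the first interval the medians are 1.74 for the members and 1.39 for the synaptonemal complex list, and -0.07 for the mismatch repair relatives.

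Markers of the cell types of the testis moved over the same ages. All 8 pachytene spermatocyte markers rose from 8 to 16 days (median 3.65), and their mean ran from between -3.47 and -3.36 at 8 days to between -0.20 and 0.56 at 16 days and 1.28 to 1.37 at 24 days. In the second interval 6 of them rose again (median 0.89), while the mean of the members overlapped between these ages. None of the 8 spermatid markers was called from 8 to 16 days (0 by limma and 0 at an unadjusted p under 0.05), and all 8 rose from 16 to 24 days (median 4.24). Of 8 spermatogonial markers 6 fell and then 8 fell, with medians of -0.72 and -0.80, and of 8 Sertoli cell markers 5 and then 6 fell. All 4 Leydig cell markers with a value fell in the first interval (median -2.30), and in the second 1 rose and 1 fell. The part of these cell types in the members' changes was not tested.

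**Figure D4:**
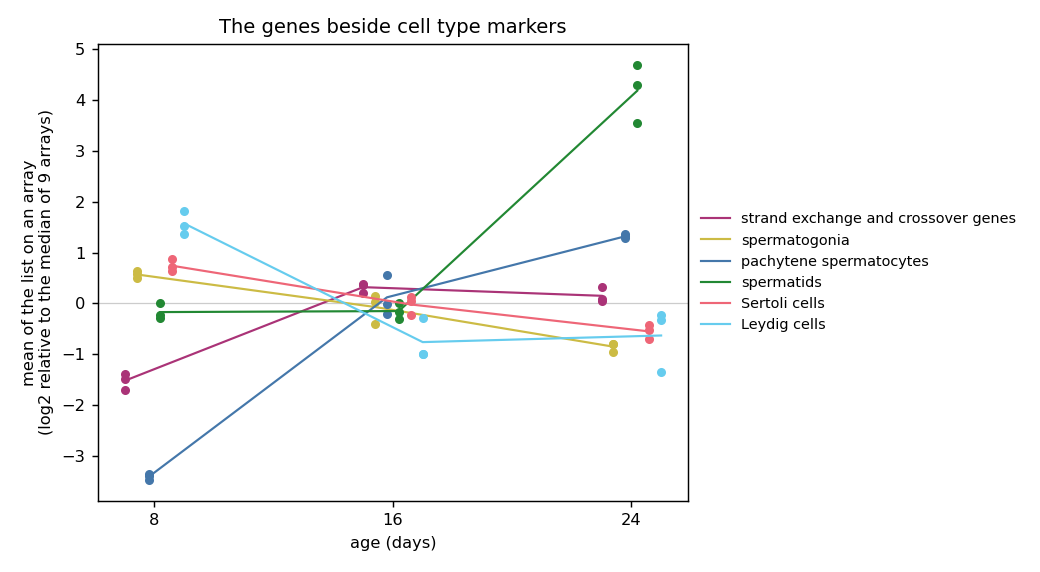
Mean log2 value per array (vertical axis) of the 8 members and of the marker lists of 5 testis cell types at 8, 16 and 24 days (horizontal axis); points are arrays and lines join the means. The members' arrays rise between 8 and 16 days and overlap afterwards, between 0.05 and 0.38, while the pachytene list goes on to 1.28 to 1.37 and the spermatid list to 3.55 to 4.69.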

How the data were processed

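Testis RNA was measured on 9 Affymetrix arrays, 3 per age; the probe annotation used is that of the MoGene ST platform. The authors deposited log2 values with every row's median over the 9 arrays at 0 once blank cells are taken as 0. Background correction, normalization and centring are not given in the sources used here. Of 28815 rows, 21780 named 1 gene symbol, 1605 several and 5430 none. Rows naming 1 gene were used, with symbols updated through RefSeq, and the rows of a gene were averaged, giving 19935 genes. There were 38964 blank cells, filled with 0.

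For each gene, a mean per age was estimated from all 9 arrays, with no covariate, by limma's lmFit and eBayes (limma 3.58.1, R 4.3.3), with Benjamini-Hochberg adjustment over all genes and a threshold of 0.05. The fit was tested on simulated data. Overlap means that the arrays of the ages share a range. Alternatives were array centring, blanks left missing, single rows, rows with several blanks left out, array weights, robust eBayes, treat at 1.5-fold, the ages compared alone, a replicate block, 2 arrays left out and each array left out.

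The members and lists were chosen with earlier results of these data known. Named list genes are, of each recombination list, up to 3 with the largest called rise and up to 3 with the largest called fall in each interval, plus named relatives and partners of members. P-values measure the spread between these arrays. Promoters come from RefSeq on GRCm38.p6.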

Additional observations from a re-analysis of the deposited data

How the results depend on the processing

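The members' first rise was called for all 8 genes under each alternative except treat against a 1.5-fold change, which called 5, and the fit without rows with more than 1 blank cell, which leaves Dmc1 out and called 7 of 7. The 3 members called from 16 to 24 days became 0 under treat (0 at an unadjusted p under 0.05), 0 under the replicate block on the 6 numbered arrays (limma, 3 at an unadjusted p), 1 on those 6 arrays without block, and 1 to 3 with single arrays left out, 1 without 24 days replicate 1. From 8 to 24 days 7 were called, against 6 under treat and 7 to 8 with single arrays left out. The intervals' difference was called for 7, against 5 under treat, 5 with the block and 6 to 7 with single arrays left out. Over all genes, 4914 were called from 8 to 16 days, against 696 under treat, 1971 with the block, 2485 on the same 6 arrays and 3741 to 5081 with single arrays left out. From 16 to 24 days 6645 were called, against 793, 1294, 1576 and 3671 to 8070; from 8 to 24 days 10840, against 3578 under treat and 9341 to 11240. The intervals differed for 1072 genes, against 434, 550, 504 and 613 to 1047, and any age for 10104, against 5934 with the block and 8367 to 10502. The cause of these moves was not tested beyond the fewer arrays. Same-numbered arrays correlated at -0.461 to 0.197 in their deviations from the age means, so the numbers are not shown to pair samples; under the block Msh5 missed the threshold after 16 days (-0.53, adjusted p = 0.137). No called change of a member turned its sign, but the balance of calls over all genes did. From 16 to 24 days 2641 rose and 4004 fell, against 2861 and 1927 with arrays centred, 792 and 1 under treat, 1198 and 96 with the block and 1286 and 290 on the same 6 arrays. From 8 to 16 days 2071 rose and 2843 fell, against 627 and 69, 1162 and 809, and 1299 and 1186 under the last 3 of these. Rises also outnumbered falls from 8 to 16 days without 8 days replicate 2 (1903 and 1855), and from 16 to 24 days without 16 days replicate 1 (1997 and 1674) or 24 days replicate 1 (2047 and 1764). From 8 to 24 days 3825 rose and 7015 fell, against 1975 and 1603 under treat. With 3 arrays per age, values missing the threshold are not shown to be unchanged.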
